A study of Drosophila melanogaster with 12 samples.

Results

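The basement membrane genes of Drosophila melanogaster encode the proteins of the thin sheet of extracellular matrix that underlies epithelia and wraps muscles and organs. Here they were followed in S2 cells, an established embryonic cell line with macrophage-like properties, in libraries that differed in the amount and the type of BRM, the ATPase of the fly SWI/SNF chromatin remodeling complexes. The members were the 10 genes Col4a1, vkg, LanA, LanB1, LanB2, Ndg, trol, SPARC, Tig and Ppn, matched by FlyBase symbol or synonym. No rule on their values was used, but earlier results of these data were known when they were chosen. Of these 10, 8 were found in the RNA-seq table of 12986 genes, and the same 8 in the ChIP-seq table of 13924 genes. LanB2 and trol could not be matched by the identifiers of the annotation used and were not analysed here. The study lists trol among its BRM target genes, so a failed match need not mean that a gene is absent from the data. The other 8 all passed the filter on low counts that left 8165 genes for testing.

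The RNA-seq experiment held 4 groups with 2 biological replicates each, all treated for 48 h with 30 µg of double-stranded RNA (dsRNA) per well. The recBRM-V5 cells carried a stably transfected plasmid for V5-tagged wild-type BRM, driven by a copper-inducible promoter, and received dsRNA against endogenous BRM. The recBRM-K804R-V5 cells were the same except that the tagged BRM carried the K804R change, which inactivates the ATPase. BRM-depleted cells had no BRM plasmid and received dsRNA against BRM, and control cells had no BRM plasmid and received dsRNA against GFP. The labels call the plasmid of these last 2 groups empty, whereas the study's methods call the controls plain S2 cells. Copper was given to the recombinant lines for the final 24 h, and no source used here says whether the other 2 groups received it. Each recombinant group was 1 cell line, so the line, the copper and the recombinant protein cannot be told apart in a comparison with BRM-depleted or control cells. Against control cells the target of the dsRNA differs too, and it cannot be told apart from these either. The ChIP-seq experiment used S2 cells with endogenous BRM and held 2 BRM immunoprecipitates (IP) and 2 Inputs.

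Library totals lay between 6600562 and 10287294 counts. The level of brm itself fitted the labels, with 16635 and 24893 CPM (counts per 1000000 counts of TMM-scaled library size) in recBRM-V5 cells, 2118 and 2005 in recBRM-K804R-V5 cells, 177 and 175 in BRM-depleted cells and 433 and 446 in control cells. The recombinant proteins were thus not made from equal amounts of brm RNA. MtnA, a copper-induced metallothionein, ranged from 5239 to 10171 CPM in the 4 libraries of the recombinant lines and from 188 to 223 CPM in the other 4. The 7 hemocyte markers all had counts, with a summed level between 1387 and 3107 CPM over all libraries. Of these, NimC1 had only 1.18 to 2.74 CPM in BRM-depleted and control cells. The markers of fat body and ovarian follicle summed to at most 1.58 and 0.606 CPM. Muscle markers summed to 1.90 to 10.8 CPM and neuron and glia markers to 43.7 to 115 CPM, mostly from elav. Replicates of 1 group differed by more than counting noise in each of the 4 groups, so none was counted as a duplicate.

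A basement membrane is built on 2 polymer networks. Laminin, a trimer of 1 alpha, 1 beta and 1 gamma chain, binds cell surface receptors and starts the assembly, and type IV collagen, a trimer of chains encoded in the fly by Col4a1 and vkg, gives the sheet its mechanical strength. Nidogen (Ndg) and the heparan sulfate proteoglycan perlecan link the networks, SPARC binds collagen and calcium, and papilin (Ppn) is a large glycoprotein related to the ADAMTS proteases. Tig encodes tiggrin, a matrix ligand of the PS2 integrin that is concentrated at muscle attachment sites. In the fly, hemocytes and the fat body are main sources of these proteins, and S2-type cell lines secrete several of them.

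The 2 collagen IV genes are neighbours on chromosome 2L, transcribed away from each other. In BDGP6 coordinates Col4a1 lies on the plus strand at chr2L:5029609-5037279 and vkg on the minus strand at chr2L:5012144-5028191, with 1417 bases between their annotated starts. LanB1 (chr2L:7811438-7820771, plus strand) and Tig (chr2L:6415179-6423310, minus strand) share the chromosome arm, LanA lies on 3L (chr3L:6203831-6218022, minus strand) and SPARC and Ppn on 3R (chr3R:26869238-26871995 and chr3R:28520665-28540324, minus strand). The 250 bases before the starts of these 2 genes and of Tig are printed here because these 3 members had a mean IP/Input ratio of at least 1.1 in the ChIP-seq data. Sequences were read from the RefSeq genome of the same release, each 5′ to 3′ towards its own gene, at chr2L:5029359-5029608 for Col4a1, chr2L:5028192-5028441 (minus strand) for vkg and chr2L:6423311-6423560 (minus strand) for Tig. Capitals in the first 2 mark TTTGGCTTTT, the longest run of letters that the Col4a1 and vkg windows share, and capitals in the third mark a GAGAG match on the other strand.
Col4a1: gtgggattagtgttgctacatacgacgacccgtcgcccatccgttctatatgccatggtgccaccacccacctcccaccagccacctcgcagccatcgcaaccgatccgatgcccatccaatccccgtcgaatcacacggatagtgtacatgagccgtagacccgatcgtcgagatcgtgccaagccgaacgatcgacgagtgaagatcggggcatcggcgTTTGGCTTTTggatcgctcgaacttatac
vkg: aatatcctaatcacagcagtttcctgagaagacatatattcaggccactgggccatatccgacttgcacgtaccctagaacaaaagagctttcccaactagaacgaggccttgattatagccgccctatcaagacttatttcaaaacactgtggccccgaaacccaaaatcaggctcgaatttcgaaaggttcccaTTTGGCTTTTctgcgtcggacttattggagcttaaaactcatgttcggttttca
Tig: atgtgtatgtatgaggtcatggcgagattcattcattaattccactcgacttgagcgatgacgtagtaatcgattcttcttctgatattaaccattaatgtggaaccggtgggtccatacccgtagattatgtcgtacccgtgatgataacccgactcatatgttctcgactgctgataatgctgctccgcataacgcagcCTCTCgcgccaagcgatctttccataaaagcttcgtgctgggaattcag
Col4a1 and vkg each have 2 annotated transcript starts, and the outer one was used. The shared run of 10 bases began 29 bases before that start of Col4a1 and 54 bases before that of vkg. It was looked for after the sequences had been seen, and it occurs on either strand in 66 (0.473%) of 13968 such windows of protein-coding genes. Of 6 motifs searched on both strands, GAGAG (found in 25.7% of all windows), TATAAA (43.0%), TATCGATA (7.99%), AGATAA (17.2%), TGACTCA (2.07%) and TGCACAC (3.26%), neither collagen window held any. The Tig window held 1, the GAGAG match that is printed as CTCTC and starts 49 bases before the start of the gene. Among the other members, only the windows of LanA and Ndg had a match, again GAGAG. Col4a1, vkg and Tig windows contained 57.2%, 44.4% and 45.6% G and C. Of the 8 genes, only Ndg and Tig overlapped another annotated gene, each on the opposite strand. For Ndg this was CG34222, over 657 bases, which was not analysed here. For Tig it was CG13982, over 157 bases, which had 50 to 101 counts per library. The strand setting of the counting is not given, so whether reads from these overlaps entered the counts of Ndg or Tig is not known.

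Most basement membrane genes were among the more abundant RNAs of S2 cells, and Ndg was the exception. On a scale of CPM per kilobase of exon, in which genes can be compared with each other, control cells averaged 984 for SPARC, 700.2 for Col4a1, 593 for LanA, 587 for vkg and 586 for LanB1. These 5 genes ranked 63rd, 83rd, 97th, 100th and 101st of 7782 tested genes with an annotated exon length. Tig followed with 190.3, Ppn with 67.5 and Ndg, at rank 6205, with 4.75 CPM per kilobase. Neighbours in this order did not all separate, since the 2 control libraries spanned 519 to 882 for Col4a1, 421 to 752 for vkg, 550.3 to 635 for LanA and 557 to 615 for LanB1. The 8 genes together took 1.76% to 2.42% of all counts of a library.

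In recBRM-V5 cells the order on the same scale was Col4a1 with 942, SPARC with 764, vkg with 739, LanB1 with 507, LanA with 459, Tig with 312, Ppn with 57.4 and Ndg with 0.572 CPM per kilobase. In recBRM-K804R-V5 cells Col4a1 (883) and vkg (839) stood above SPARC (537), and in BRM-depleted cells Col4a1 (744), LanB1 (687) and LanA (672) stood above vkg (582) and SPARC (519). SPARC therefore held the first place only in the mean of the control libraries. Its level per kilobase was 1.38 and 1.42 times that of Col4a1 in the 2 control libraries, against 0.556 to 0.853 times in the other 6.

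**Figure D1:**
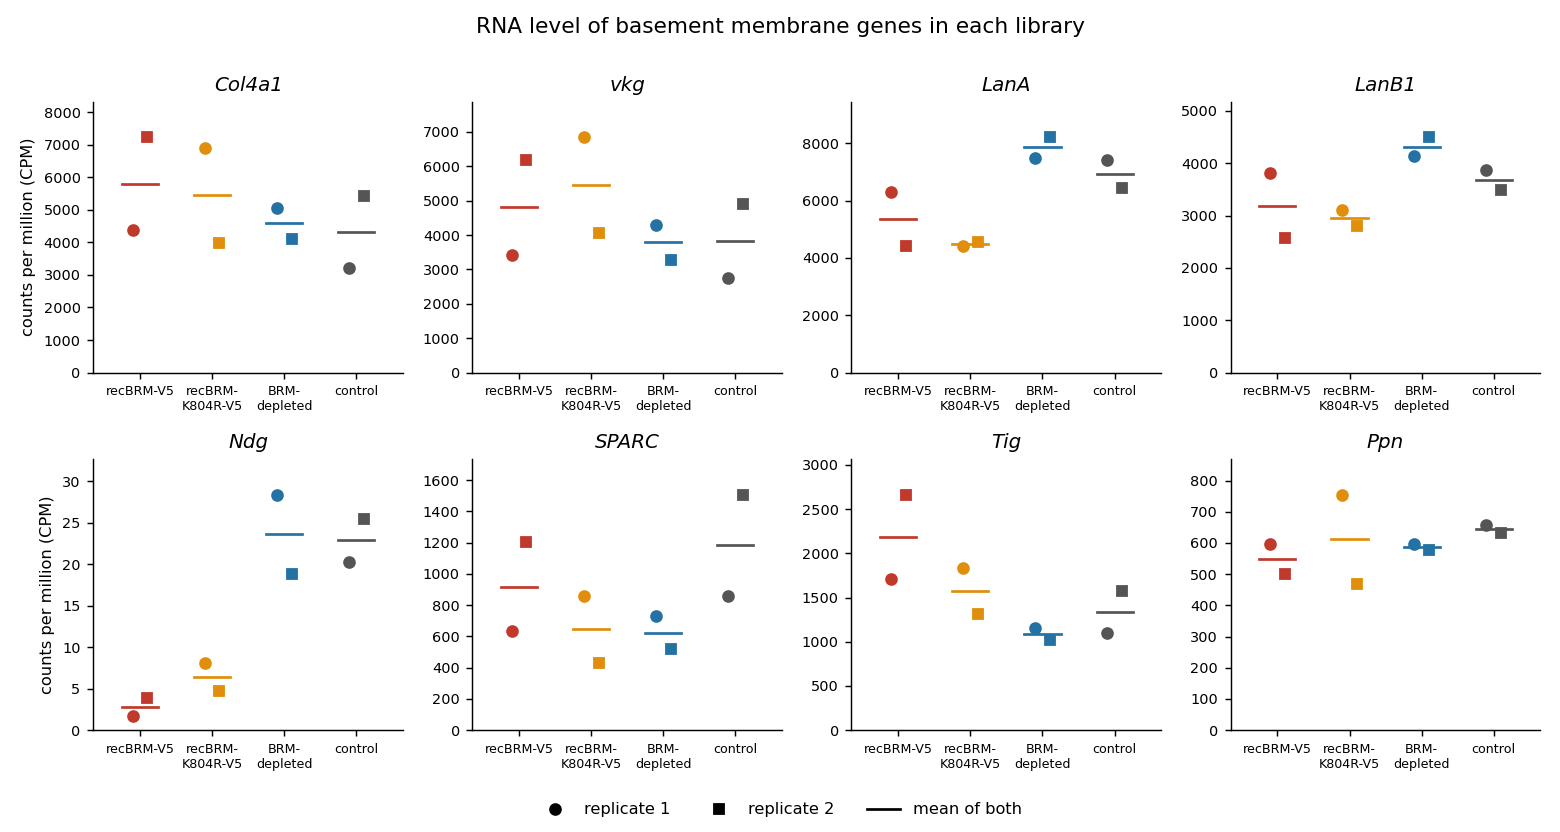
RNA level in CPM (vertical axis, from 0, with its own scale in each panel) of the 8 measured basement membrane genes in the 8 libraries, by group on the horizontal axis. Circles are replicate 1, squares replicate 2 and lines the mean of both. Ndg is at 1.67 to 8.09 CPM in the recombinant lines and at 18.8 to 28.4 CPM in BRM-depleted and control cells, and the 2 collagen genes share their pattern over the libraries.

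The comparison of recBRM-V5 with control cells asks which genes differ in cells that make wild-type recombinant BRM. Ndg, the nidogen gene (chr2R:10313891-10322104, plus strand), fell in these cells. It had 1.67 and 3.84 CPM (14 and 27 counts) in recBRM-V5 cells, against 20.3 and 25.5 CPM (192 and 209 counts) in control cells. All libraries of the recombinant line were low and the groups did not overlap. The difference was 8.41-fold (log2 fold change −3.07, SE 0.44, edgeR quasi-likelihood test, Benjamini-Hochberg adjusted p = 0.00327), and it passed the threshold of 0.05 with each of the 8 libraries left out in turn (−3.77 to −2.57).

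Hemocyte markers moved in the same comparison, 2 of the 7 higher and 2 lower. NimC1 (6.97 on the log2 scale, edgeR adjusted p = 0.000192) and He (3.17, adjusted p = 0.00147) rose, and Hml (−1.78, adjusted p = 0.0318) and srp (−0.64, adjusted p = 0.0281) fell, where the last 2 calls were lost in 5 of the 8 fits that left out a library (adjusted p up to 0.105 and 0.154). Their part in the difference of Ndg was not tested. In such bulk libraries fewer expressing cells and less RNA per cell cannot be told apart. Ndg was the only gene of the 8 called in this comparison, whereas 18.2% of all tested genes were called, 10.9% higher and 7.24% lower. With library size alone as scaling 760 genes were higher and 751 lower, in place of 892 and 591. Tig had 1710 and 2665 CPM in recBRM-V5 cells and 1096 and 1575 CPM in control cells. Its recBRM-V5 libraries were both above the control libraries, but the difference of 0.71 ± 0.30 (log2, SE) did not pass the test (edgeR adjusted p = 0.146). Without replicate 1 of recBRM-V5 it did (0.99, adjusted p = 0.0396). LanA, the laminin alpha chain gene, had 6311 and 4418 CPM in recBRM-V5 cells and 7426 and 6433 CPM in control cells, again without overlap and without a call (−0.37 ± 0.26, adjusted p = 0.378).

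The remaining 5 genes were not called either, and their libraries overlapped except for Ppn. Col4a1 had 4374 and 7240 CPM in recBRM-V5 cells and 3198 and 5436 CPM in control cells (log2 fold change 0.43 ± 0.40, SE). The other collagen IV gene, vkg, had 3432 and 6185 CPM in recBRM-V5 cells and 2740 and 4891 CPM in control cells (0.33 ± 0.42). In both genes the 2 replicates of a group differed by more than the groups did. LanB1, the laminin beta chain gene, differed by −0.21 ± 0.25, SPARC by −0.37 ± 0.44 and Ppn by −0.23 ± 0.23, and edgeR adjusted p-values of these 5 genes lay between 0.514 and 0.643. Libraries of the 2 groups did not overlap for 4 of the 8 genes (1 higher, 3 lower), against 53.5% of all tested genes (27.4% higher, 26.1% lower).

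The comparison of recBRM-K804R-V5 with control cells asks the same of the ATPase-dead protein, and it shares the control libraries with the comparison above. Ndg fell here too. It had 8.09 and 4.69 CPM (81 and 31 counts) in recBRM-K804R-V5 cells, against 20.3 and 25.5 CPM in control cells, with no overlap. The difference was 3.51-fold (log2 fold change −1.81, SE 0.40, edgeR adjusted p = 0.0257). It did not pass without either recBRM-K804R-V5 library or without either control library, at log2 fold changes between −2.28 and −1.49 and adjusted p-values up to 0.142. Of the hemocyte markers Hml was called here (−3.68, adjusted p = 0.00350), with 97.7 and 29.7 CPM in recBRM-K804R-V5 cells and 828 and 810.3 CPM in control cells, and its part in the difference of Ndg was not tested. No other member was called, so 1 of 8 stood beside 10.5% of all tested genes (6.34% higher, 4.15% lower). Scaling by library size alone gave 471 genes higher and 398 lower, in place of 518 and 339. The study's list of BRM target genes has trol, which could not be matched here, among those increased with both recombinant proteins.

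The laminin genes were low in the K804R line without a call. LanA had 4398 and 4538 CPM in recBRM-K804R-V5 cells and 7426 and 6433 CPM in control cells (−0.63 ± 0.26, log2 and SE, edgeR adjusted p = 0.172). LanB1 had 3113 and 2797 CPM in recBRM-K804R-V5 cells and 3866 and 3497 CPM in control cells (−0.32 ± 0.25, adjusted p = 0.503). Together with Ndg these were the 3 members whose libraries did not overlap, all lower, against 54.7% of all tested genes (28.2% higher, 26.5% lower). With DESeq2 LanA was called (−0.65, adjusted p = 0.0347), and without the filter on low counts SPARC was (−0.88, adjusted p = 0.0248). SPARC had 859 and 431 CPM in recBRM-K804R-V5 cells and 857 and 1507 CPM in control cells, so 1 pair of libraries was nearly equal.

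Col4a1 (0.34 ± 0.39), vkg (0.52 ± 0.42), Tig (0.24 ± 0.30) and Ppn (−0.07 ± 0.23) had edgeR adjusted p-values between 0.517 and 0.899 in recBRM-K804R-V5 against control cells. The median log2 fold change of the 8 genes was −0.22 in recBRM-V5 cells and −0.20 in recBRM-K804R-V5 cells against control cells, beside 0.0038 and 0.01 over all tested genes.

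BRM depletion without a recombinant protein was compared with the GFP dsRNA control to ask what loss of endogenous BRM changes. No basement membrane gene was called, and 0% of the tested genes were called by edgeR. Even brm, the target of the dsRNA, was not called (−1.32 ± 0.26, log2 and SE, edgeR adjusted p = 0.468, unadjusted p = 0.00101). The lack of calls is therefore no measure of how little changed. At an unadjusted p under 0.05 edgeR gave 378 genes (4.63%). At an adjusted p under 0.05 DESeq2 called 19 genes and limma-voom 0. Ndg had 28.4 and 18.8 CPM in BRM-depleted cells and 20.3 and 25.5 CPM in control cells, a difference of 0.04 ± 0.37 (log2, SE, adjusted p = 0.981).

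SPARC showed the largest difference of the 8 genes after depletion. It had 731 and 517 CPM in BRM-depleted cells and 857 and 1507 CPM in control cells, without overlap, but the control replicates were far apart and the difference was not called (−0.92 ± 0.44, edgeR adjusted p = 0.868, unadjusted p = 0.0706). LanA had 7493 and 8220 CPM in BRM-depleted cells and 7426 and 6433 CPM in control cells (0.18 ± 0.26). LanB1 had 4129 and 4503 CPM in BRM-depleted cells and 3866 and 3497 CPM in control cells (0.23 ± 0.25). Both laminin genes had all BRM-depleted libraries above the controls, which with SPARC and Ppn made 4 of 8 genes without overlap (2 higher, 2 lower), against 44.1% of all tested genes (22.0% higher, 22.1% lower). Col4a1 (0.09 ± 0.39), vkg (−0.01 ± 0.42), Tig (−0.30 ± 0.30) and Ppn (−0.14 ± 0.23) were within 1 SE of 0 or at it.

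**Figure D2:**
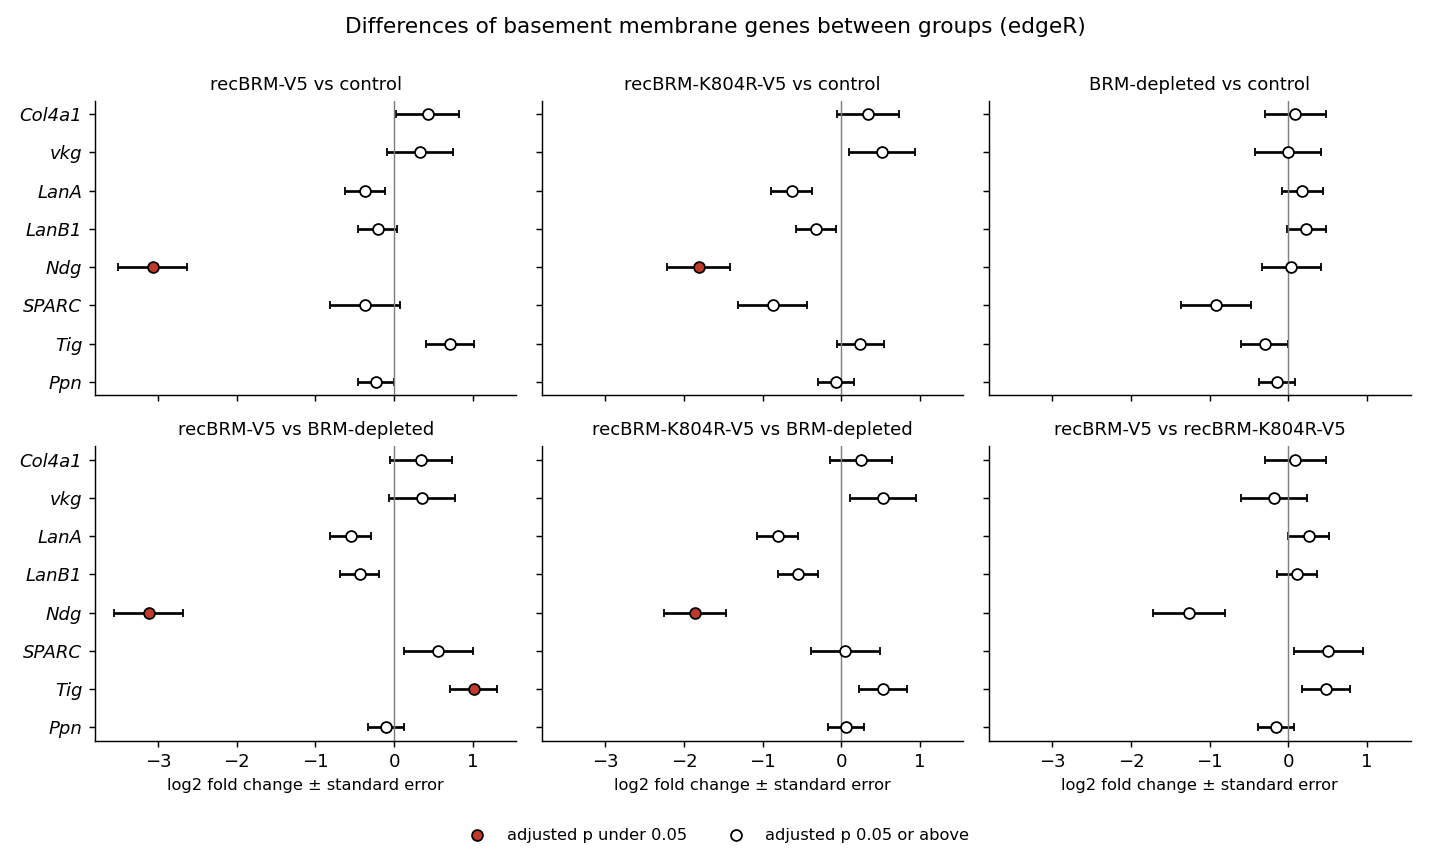
Log2 fold change (horizontal axis, points) with its standard error (bars) of each basement membrane gene in the 6 comparisons, from edgeR. Filled points have an adjusted p under 0.05: Ndg in both recombinant lines against control and against BRM-depleted cells (−3.07, −1.81, −3.12 and −1.86) and Tig in recBRM-V5 against BRM-depleted cells (1.01).

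The recombinant lines were also compared with BRM-depleted cells, which received the same dsRNA. In recBRM-V5 cells Ndg fell 8.67-fold against BRM-depleted cells (log2 fold change −3.12, SE 0.44, edgeR adjusted p = 0.00336) and kept the call with each library left out in turn. Tig rose. The gene for tiggrin had 1710 and 2665 CPM in recBRM-V5 cells, against 1151 and 1020 CPM in BRM-depleted cells, with both recombinant libraries high. The difference was 2.01-fold (1.01 ± 0.30, adjusted p = 0.0495). This call lay at the threshold: it was lost on leaving out any library except replicate 1 of recBRM-V5 (log2 fold change 0.65 to 1.09, adjusted p up to 0.268). It was also lost with RLE size factors (adjusted p = 0.0509), library size alone (0.0605), the robust option (0.0512) and only the 4 libraries compared (0.0858).

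These 2 genes of 8 were called where 19.5% of all tested genes were (11.4% higher and 8.10% lower; with library size alone as scaling 790 genes were higher and 899 lower in place of 934 and 661). LanA had 6311 and 4418 CPM in recBRM-V5 cells and 7493 and 8220 CPM in BRM-depleted cells (−0.55 ± 0.26, edgeR adjusted p = 0.173). LanB1 had 3808 and 2565 CPM in recBRM-V5 cells and 4129 and 4503 CPM in BRM-depleted cells (−0.44 ± 0.25, adjusted p = 0.253). Both laminin genes were low in the recombinant line without overlap, and both were called without replicate 1 of recBRM-V5 (LanA −0.83, adjusted p = 0.0349, and LanB1 −0.75, adjusted p = 0.0390). SPARC (0.56 ± 0.44), Col4a1 (0.34 ± 0.39), vkg (0.35 ± 0.42) and Ppn (−0.10 ± 0.23) had adjusted p-values between 0.405 and 0.796. Libraries did not overlap for 4 of 8 genes, against 60.3% of all tested genes (31.4% higher, 28.9% lower).

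In recBRM-K804R-V5 against BRM-depleted cells Ndg fell 3.62-fold (−1.86, SE 0.40, edgeR adjusted p = 0.0241), the only call among 8 genes where 11.7% of all tested genes were called (6.87% higher, 4.85% lower). Without either recBRM-K804R-V5 library or either BRM-depleted library it was not called (−2.33 to −1.53, adjusted p up to 0.157). LanA had 4398 and 4538 CPM in recBRM-K804R-V5 cells, against 7493 and 8220 CPM in BRM-depleted cells, the widest separation of the laminin genes in any comparison. Its log2 fold change of −0.81 ± 0.26 was not called (adjusted p = 0.0819), but DESeq2 (adjusted p = 0.00276), the fit without a filter on low counts (0.0198) the fit of only the 4 libraries compared (0.0234) and the fits without either recBRM-V5 library (0.0233 and 0.0198) called it. LanB1 (−0.55 ± 0.25) was lower and Tig (0.53 ± 0.30) higher in every recBRM-K804R-V5 library, neither with a call (adjusted p = 0.190 and 0.265). In all, 4 of 8 genes did not overlap, against 68.0% of all tested genes (37.1% higher, 30.9% lower). Scaling by library size alone, 502 of all tested genes were called higher and 485 lower, in place of 561 and 396.

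The 2 recombinant lines were compared directly to ask what differs between the wild-type and the ATPase-dead protein. No basement membrane gene was called, where 4.74% of all tested genes were (2.51% higher, 2.23% lower). With library size alone as scaling 186 genes were higher and 195 lower, in place of 205 and 182. Ndg had 1.67 and 3.84 CPM in recBRM-V5 cells and 8.09 and 4.69 CPM in recBRM-K804R-V5 cells. Its libraries did not overlap, as for 41.7% of all tested genes (21.0% higher, 20.6% lower), and it was the only such member. The log2 fold change was −1.26 ± 0.46 (edgeR adjusted p = 0.185, unadjusted p = 0.0244), and without the filter on low counts it was called (−1.30, adjusted p = 0.0152). Differences of the other 7 genes ran between −0.18 ± 0.42 for vkg and 0.51 ± 0.44 for SPARC, with adjusted p-values between 0.450 and 0.934. Each protein was in 1 cell line, and brm RNA itself differed between these lines. The line, the level of recombinant BRM and its ATPase therefore cannot be told apart here.

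The 2 collagen IV genes moved together over the libraries, and so did the 2 laminin genes, but the 2 pairs did not move with each other. Over the 8 libraries, which share groups and differ in depth, Pearson's r of log2 CPM was 0.956 between Col4a1 and vkg (Spearman's rho 0.905) and 0.945 between LanA and LanB1 (rho 0.905). It was −0.602 between Col4a1 and LanA and −0.743 between vkg and LanA. Per kilobase, vkg stood at 0.744 to 0.967 times the level of Col4a1 in every library and LanB1 at 0.969 to 1.32 times that of LanA, whereas LanA ranged from 0.322 to 1.22 times the level of Col4a1.

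Much of the shared pattern of the collagen genes lay between replicates and not between groups. Col4a1 was higher in replicate 2 than in replicate 1 of recBRM-V5 and of control cells, by 1.66 and 1.70-fold, and lower in replicate 2 of recBRM-K804R-V5 and of BRM-depleted cells, by 1.73 and 1.23-fold. In all 4 groups vkg, SPARC, Tig and Ndg were higher in the same library as Col4a1. LanA was higher in the opposite library in all 4 groups, LanB1 in 3 and Ppn in 2. Of all 8165 tested genes, 21.6% had the same higher library as Col4a1 in all 4 groups and 18.6% in none.

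The size of this difference between replicates was large for these genes. For SPARC the higher library of a group exceeded the lower by 1.41 to 1.99-fold and for vkg by 1.32 to 1.80-fold, and the median absolute log2 difference between replicates over all tested genes was 0.17 to 0.37. It sets the standard errors of about 0.4 for Col4a1, vkg and SPARC, against 0.23 to 0.26 for Ppn, LanB1 and LanA. The cause of the difference between replicates was not tested.

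**Figure D3:**
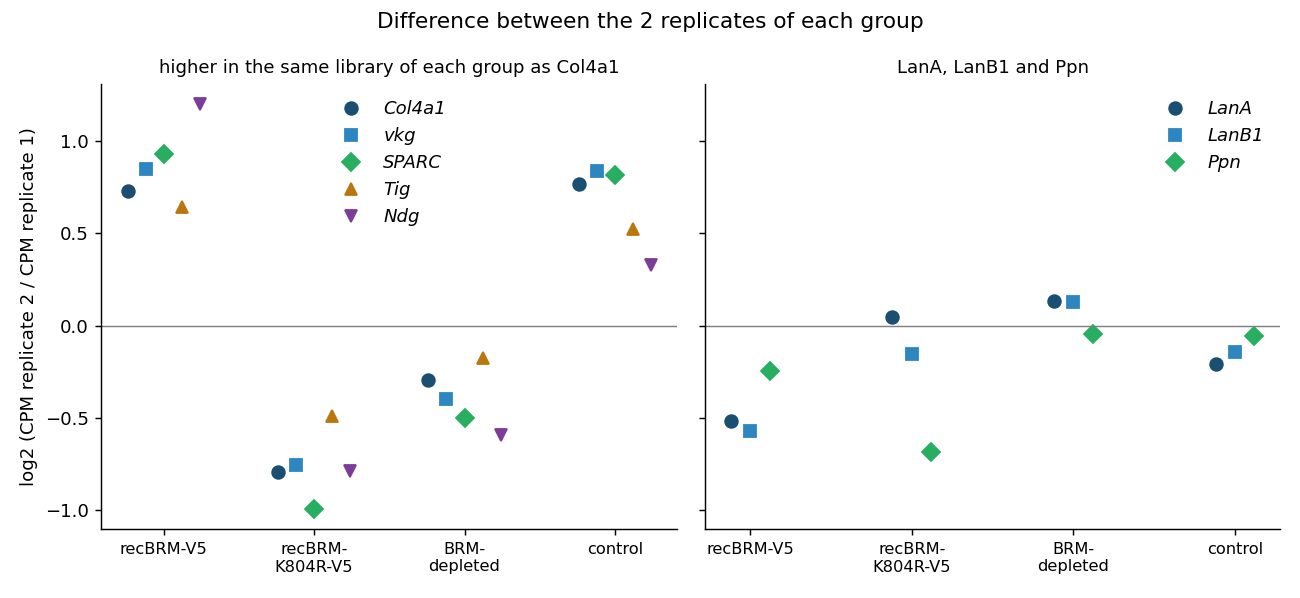
Log2 ratio of CPM in replicate 2 over replicate 1 (vertical axis) in each group (horizontal axis) for Col4a1, vkg, SPARC, Tig and Ndg (left) and for LanA, LanB1 and Ppn (right). Points above 0 were higher in replicate 2. The 5 genes at left have the same sign in each of the 4 groups, whereas LanA has the opposite sign of Col4a1 in all 4.

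The tested gene with the profile most like that of each member over the 8 libraries was found by Pearson's r of log2 CPM. It was Pebp1 for Col4a1 (r = 0.960, with vkg next at 0.956), insv for vkg (0.973) and CG17612 for LanA (0.996). For LanB1 it was Not11 (0.986), for Ndg Gcna (0.992), for SPARC CG5167 (0.965), for Tig Rpt1 (0.976) and for Ppn CG15922 (0.980). Gcna had 24.5 CPM on average in recBRM-V5 cells, 33.5 in recBRM-K804R-V5 cells, 60.7 in BRM-depleted cells and 60.6 in control cells, thus the order of Ndg with smaller differences. With 8 libraries and 8165 genes, values of this size are a description only.

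Genes that act with the basement membrane were read from 4 lists. Of the other matrix components (6 genes, all tested), 2 were higher (Pxn and wb) and 1 lower (Mp) in recBRM-V5 than in control cells, 0 higher and 1 lower (Pxn) in recBRM-K804R-V5 than in control cells, and 4 higher (Pxn, Glt, wb and loh) and 0 lower in recBRM-V5 than in BRM-depleted cells. The background shares of called genes given above (18.2%, 10.5% and 19.5%) apply to these counts too. Pxn, which encodes the matrix peroxidase peroxidasin, had 414 and 432 CPM in recBRM-V5 cells, 92.5 and 90.0 in recBRM-K804R-V5 cells, 139.6 and 142 in BRM-depleted cells and 122 and 184 in control cells. It rose in recBRM-V5 cells against control cells (1.47 ± 0.20, edgeR adjusted p = 0.00245) and against recBRM-K804R-V5 cells (2.21 ± 0.20, adjusted p = 0.00167), and both calls held with each library left out. The fall of Pxn in recBRM-K804R-V5 against control cells (−0.74, edgeR adjusted p = 0.0480) was less firm. This call was lost without either library of recBRM-K804R-V5 or BRM-depleted cells and without control replicate 2 (−0.77 to −0.45). It was also lost with limma-voom (adjusted p = 0.0557) and in edgeR with only the 4 libraries compared (adjusted p = 0.0712).

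The wb gene, which encodes a further laminin alpha chain, had 79.1 and 66.4 CPM in recBRM-V5 cells, 67.6 and 47.9 in recBRM-K804R-V5 cells, 36.6 and 36.1 in BRM-depleted cells and 41.4 and 36.4 in control cells. It rose in recBRM-V5 against control cells (0.90, edgeR adjusted p = 0.0184), a call lost without either control library (0.99 and 0.79). This call was also lost with only the 4 libraries compared (edgeR adjusted p = 0.0515). Glt, which encodes the adhesion-related glycoprotein glutactin, had 2504 and 1805 CPM in recBRM-V5 cells, 2797 and 1769 in recBRM-K804R-V5 cells, 749 and 705 in BRM-depleted cells and 1296 and 1459 in control cells. It was the only matrix component called in recBRM-K804R-V5 against BRM-depleted cells (1.65 ± 0.28, edgeR adjusted p = 0.00921) and was also called in recBRM-V5 against BRM-depleted cells (1.57 ± 0.28, adjusted p = 0.00773). Both calls were lost without either BRM-depleted library (adjusted p up to 0.111 and 0.0833). Mp, the fly collagen XV/XVIII gene, had 0.595 and 1.28 CPM (5 and 9 counts) in recBRM-V5 cells and 2.43 and 4.26 CPM (23 and 35 counts) in control cells. Its call (−1.84, edgeR adjusted p = 0.0402) rested on these few counts. It was kept in only 1 of the 8 fits that left out a library, the fit without recBRM-V5 replicate 2 (−2.45 to −1.37 over the 8 fits). With only the 4 libraries compared it was lost too (edgeR adjusted p = 0.112).

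Of the cell surface receptors (12 names, 11 in the table, 10 tested), 2 were higher and 0 lower in recBRM-V5 than in control cells, beside 10.9% and 7.24% of all tested genes, and 1 was higher and 1 lower in recBRM-K804R-V5 than in control cells, beside 6.34% and 4.15%. The integrin beta-PS gene mys was not called in any comparison, at 583 to 781 CPM in the 8 libraries. The alpha-PS2 integrin gene if, whose protein is the receptor of tiggrin, had 19.6 and 20.5 CPM in recBRM-V5 cells, 5.60 and 15.4 in recBRM-K804R-V5 cells, 3.53 and 4.76 in BRM-depleted cells and 4.22 and 3.78 in control cells. It rose in recBRM-V5 against control cells (2.32 ± 0.45, edgeR adjusted p = 0.0111) but not without either control library (adjusted p up to 0.0794). The integrin beta-nu gene Itgbn had 5.10 and 9.09 CPM in recBRM-K804R-V5 cells, against 36.6 and 26.6 CPM in control cells (−2.18 ± 0.31, adjusted p = 0.00430), and kept this call with each library left out. In recBRM-V5 cells it had 21.0 and 22.2 CPM.

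The glypican gene dlp had 41.6 and 44.5 CPM in recBRM-V5 cells, 32.2 and 42.9 in recBRM-K804R-V5 cells and 51.6 and 53.9 in BRM-depleted cells, against 17.0 and 21.0 CPM in control cells. It was called in recBRM-V5 against control cells (1.18 ± 0.20, edgeR adjusted p = 0.00640), though not without control replicate 1 (adjusted p = 0.0591). In BRM-depleted against control cells the difference was as large (1.48 ± 0.20) with an adjusted p of 0.194. In recBRM-K804R-V5 against control cells it was called (0.98 ± 0.20, adjusted p = 0.0196) and lost in 5 of the 8 fits that left out a library, those without recBRM-K804R-V5 replicate 2, either BRM-depleted library or either control library (adjusted p up to 0.153).

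The genes for collagen synthesis and secretion (16 names, 13 in the table, 8 tested) mostly did not pass the test. The prolyl 4-hydroxylase gene PH4alphaEFB had 339 to 705 CPM and was called in no comparison. The only call was Plod, the collagen lysyl hydroxylase gene, with 636 and 465 CPM in recBRM-V5 cells against 279.9 and 251 CPM in control cells (1.05 ± 0.26, edgeR adjusted p = 0.0298). This call was lost in 5 of the 8 fits that left out a library, those without recBRM-V5 replicate 1, either BRM-depleted library or either control library (0.80 to 1.12). With only the 4 libraries compared it was lost too (edgeR adjusted p = 0.0529).

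Of the remodelling genes (9 names, 8 in the table, 6 tested), 2 were higher and 0 lower in recBRM-V5 than in control cells, and 1 was higher and 1 lower in recBRM-K804R-V5 than in control cells, beside the same shares of all tested genes as for the receptors. These were the 2 matrix metalloproteinase genes. Mmp1 had 109 and 156 CPM in recBRM-V5 cells, 145 and 83.4 in recBRM-K804R-V5 cells, 42.3 and 42.9 in BRM-depleted cells and 51.7 and 58.1 in control cells. It rose in recBRM-V5 against control cells (1.27 ± 0.27, edgeR adjusted p = 0.0166), a call lost without either control library (adjusted p up to 0.104). Mmp2 had 17.6 and 22.6 CPM in recBRM-V5 cells, against 5.0 and 5.15 CPM in recBRM-K804R-V5 cells, and 9.11 to 12.0 CPM in BRM-depleted and control cells. The difference between the 2 lines (1.98 ± 0.26, adjusted p = 0.00624) was called with each library left out. Reck, which encodes a membrane-anchored inhibitor of such proteases, fell in recBRM-V5 against BRM-depleted cells (−0.88, adjusted p = 0.0176), but not without recBRM-V5 replicate 2 or either BRM-depleted library (adjusted p up to 0.130). Over the 30 tested genes of the 4 lists and 6 comparisons there were 28 calls in 180 tests (15.6%, against 10.8% over all tested genes). Of these calls 5 (17.9%, against 22.0% of the calls of all genes) held with each library left out: 3 of Pxn, 1 of Itgbn and 1 of Mmp2.

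**Figure D4:**
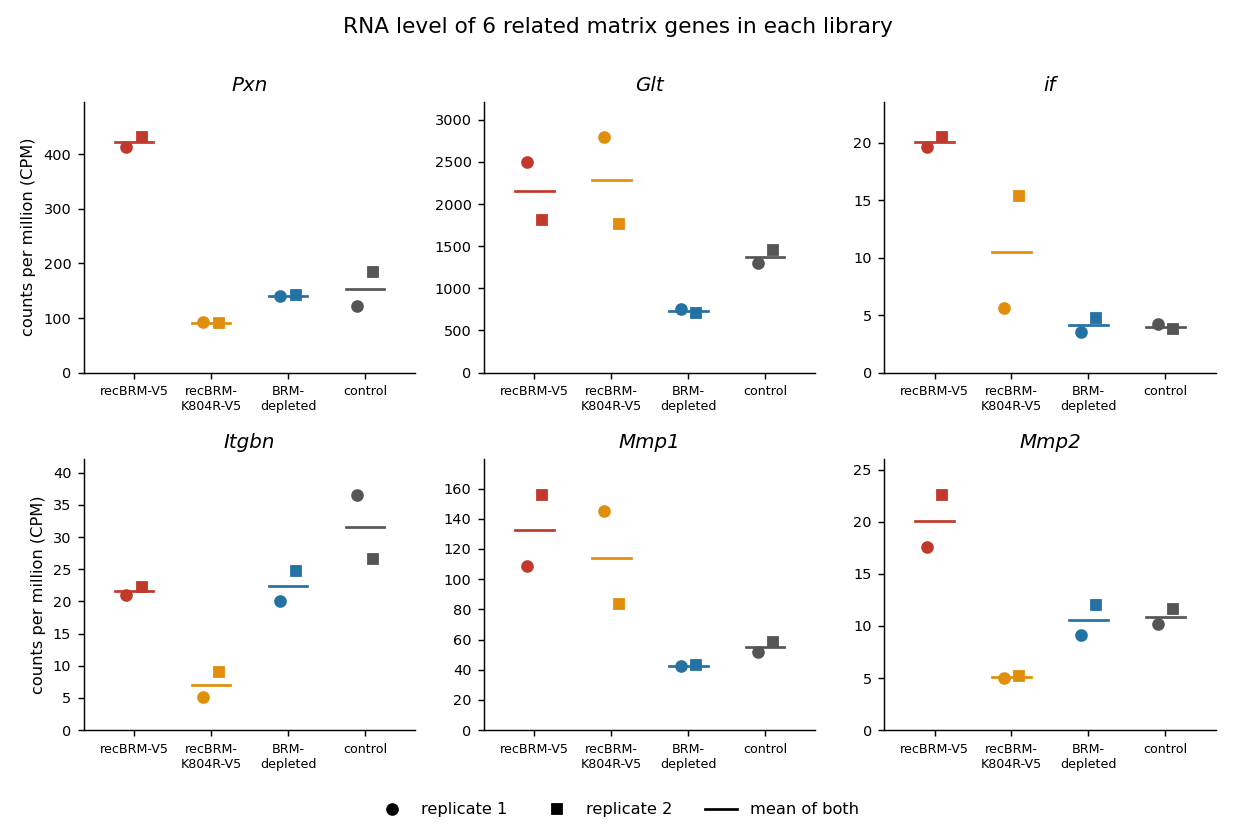
RNA level in CPM (vertical axis, from 0, with its own scale in each panel) of 6 related genes in the 8 libraries, by group on the horizontal axis: the matrix genes Pxn and Glt, the integrin genes if and Itgbn, and the proteases Mmp1 and Mmp2. Circles are replicate 1, squares replicate 2 and lines the mean of both. Pxn is at 414 and 432 CPM in recBRM-V5 cells and at 90.0 to 184 CPM in the other 6 libraries.

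The ChIP-seq table gives the coverage signal of endogenous BRM and Input averaged over each gene with 200 bp on either side, and the study calls a gene bound at an average enrichment of at least 1.1. For its metagene and heatmap plots the study merged the 2 IP replicates, and likewise the 2 Inputs. Whether the 1.1 rule also used merged replicates is not stated, so the mean of the 2 IP/Input ratios was taken. It was at least 1.1 for 3 of the 8 basement membrane genes, Col4a1, vkg and Tig, against 15.6% of the 13557 genes with enough Input signal. With the signal of both replicates summed before division, a choice made after seeing the data, 4 of the 8 reached 1.1, namely vkg (1.22), LanB1 (1.12), Col4a1 (1.11) and SPARC (1.11), against 16.8% of all genes, and Tig (1.09) did not. Both collagen IV genes were thus among those at or above 1.1 either way. For vkg the IP signal was 4.14 and 3.02 and the Input signal 3.28 and 2.60, which gave ratios of 1.26 and 1.16 in the 2 replicates. For Col4a1 the IP signal was 3.60 and 3.70 and the Input signal 3.61 and 2.96, with ratios of 0.996 and 1.25, and for Tig the ratios were 0.961 and 1.24.

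Only vkg reached 1.1 in both replicates, as 186 of all genes did. LanB1 (1.29 and 0.894) and SPARC (1.24 and 0.943) were over it in replicate 1 only, and both had a mean of 1.09. Ndg was over it in replicate 2 only (0.872 and 1.22, mean 1.05). The means of LanA (0.968) and Ppn (0.985) were below 1. In all, 3 of 8 genes reached 1.1 in replicate 1 (vkg, LanB1 and SPARC; 15.9% of all genes) and 4 of 8 in replicate 2 (Col4a1, vkg, Ndg and Tig; 25.8%).

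The median of the mean ratios was 1.09 over the 8 genes and 0.962 over all genes. The 2 replicates did not rank genes alike: over all genes the log2 ratios of replicate 1 and replicate 2 correlated at r = −0.282. In limma on log2(signal + 0.1), differences between IP and Input of the 8 genes ran from −0.05 to 0.27 (0.27 ± 0.25 for vkg, SE), each with an adjusted p of 1.00. This fit had no term for the replicate number, although deviations of same-numbered IP and Input correlated at 0.690. Its SE therefore includes signal shared by an IP and its Input. It does not measure the spread of the 2 IP/Input ratios of a gene (1.26 and 1.16 for vkg). After adjustment limma passed 0 genes of the whole table at 0.05, and likewise 0 with the replicate number as a block. Before adjustment the fit without the block had 4 genes higher and 11 lower in the IP at that threshold. Neither fit called a member, and no SE within pairs was computed, so how firm the ratio of a single member is was not settled. Ndg and Tig, the members whose RNA was called in a recombinant line, each had 1 replicate over 1.1 and 1 below 1, and the RNA libraries are not from the cells used for ChIP-seq.

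**Figure D5:**
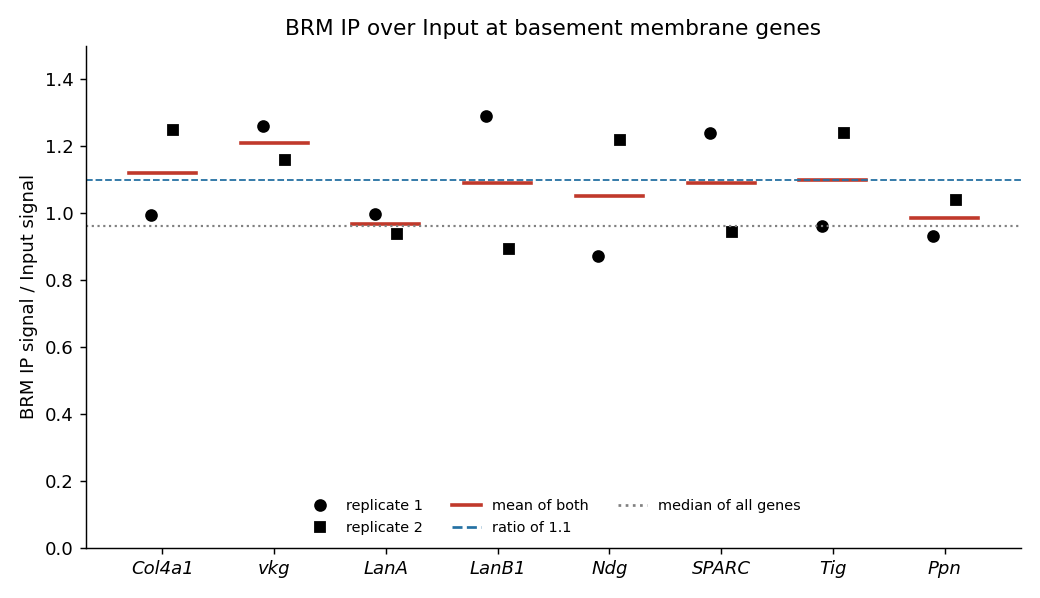
Ratio of BRM IP over Input signal (vertical axis, from 0) at each basement membrane gene (horizontal axis). Circles and squares are replicates 1 and 2, red lines their mean, the dashed line a ratio of 1.1 and the dotted line the median of all genes (0.962). Only vkg has both points above the dashed line (1.26 and 1.16).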

How the data were processed

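The authors mapped paired-end poly(A) RNA-seq reads with TopHat2 and counted them per gene with HTSeq, and what they deposited are raw counts. The study's methods name the build as BDGP6 (Dm3) and the submitters' notes name dm3; the tables are keyed by gene, so the difference touches no value here. For ChIP-seq the authors aligned reads with Bowtie 2 and averaged coverage per gene with ngs.plot, and the deposited signal has no stated scaling and no read depth. The library kit keeps strand, but the strand setting of the counting is not given in the sources used here.

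Groups followed the labels. Counts were tested in edgeR 4.0.16 (R 4.3.3; TMM, filterByExpr, quasi-likelihood, all 8 libraries in 1 fit, 6 contrasts), with Benjamini-Hochberg adjustment over 8165 genes and calls at 0.05. CPM used TMM-scaled library sizes. ChIP-seq used the mean of the 2 replicates' IP/Input for genes with Input of at least 0.5, and limma 3.58.1 on log2(signal + 0.1). With 2 against 2 samples an exact permutation test cannot go below p = 0.333, so none was used. Alternatives were DESeq2 1.42.0, limma-voom, other scalings, filters and thresholds, a block for the replicate number and fits without 1 library, which assume that the lone sample varies like the other groups. On counts simulated for recBRM-V5 against control (8165 genes, 200 changed), edgeR recovered 34.5% of changes of size 1 and 85% of size 2 on the log2 scale. Nothing in the labels says how replicates were cultured apart from calling them biological.

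The members and the gene lists were chosen with earlier results of these data known. Named genes were the members, brm and MtnA, up to 3 genes per list with the largest called change, and the nearest profile of each member. loh, mys and PH4alphaEFB were named after their values were seen. Positions and exon lengths came from Ensembl release 115 (BDGP6) and sequences from the RefSeq genome of the same release. Python 3.11.15, numpy 2.4.6, pandas 2.3.3 and matplotlib 3.10.9 were used for the rest.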

Additional observations from a re-analysis of the deposited data

Results flagged for a closer look

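No basement membrane gene was called between the 2 recombinant lines in the direct edgeR test. Of all tested genes 4.74% were called (2.51% higher and 2.23% lower), and brm was among them (log2 difference 3.33). Among the 41 tested genes of the related lists and markers 7 were called, all higher in recBRM-V5 than in recBRM-K804R-V5 cells. They were the matrix gene Pxn (2.21), the integrin gene Itgbn (1.63), the protease gene Mmp2 (1.98), the hemocyte marker genes NimC1 (5.51), He (4.49) and Sr-CI (2.38) and the neuronal marker gene brp (0.94). The call of brp was lost in all 8 fits that left out a library (log2 difference 0.83 to 1.06). That of Sr-CI was kept in only 2 of these fits (1.32 to 2.98) and that of Itgbn in 5 (1.24 to 2.07). The other calls held in all 8 such fits. With only the 4 libraries compared the calls of Itgbn, Sr-CI and brp were lost (edgeR adjusted p = 0.111, 0.126 and 0.172). The part of the hemocyte genes in any value of the basement membrane genes was not tested.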

How the results depend on the processing

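Among the fold changes of the 8 basement membrane genes under alternatives other than leaving out a library, 437 kept their direction and their side of the threshold, 8 reversed, 6 gained a call and 5 lost it. The 8 reversals were all of differences near 0: vkg in BRM-depleted against control cells was 0.01 with DESeq2, RLE size factors and library size alone, 0.03 with limma-voom and 0.02 with the replicate block. In recBRM-K804R-V5 against BRM-depleted cells SPARC was −0.04 with limma-voom and −0.02 with library size alone, and Ppn −0.01 with library size alone. In recBRM-V5 against BRM-depleted cells 1 member, Ndg, was called in place of 2 at a threshold of 0.01, with RLE size factors, library size alone, the robust option, only the 4 libraries compared and the replicate block. In recBRM-K804R-V5 against control cells 0 members were called at a threshold of 0.01 and 2 with DESeq2 (LanA added) or no filter on low counts (SPARC added). In recBRM-K804R-V5 against BRM-depleted cells 0 were called at 0.01 and 2 at 0.1, with DESeq2, with no filter and with only the 4 libraries compared (LanA added). Between the recombinant lines 1 member, Ndg, was called with no filter. The cause of these changes was not tested, apart from the thresholds themselves.

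Counts of all called genes changed by over 1.5 times as follows. For recBRM-V5 against control cells 560 genes passed at 0.01 and 740 with only the 4 libraries compared, in place of 1483. For recBRM-K804R-V5 against control cells 316 passed at 0.01 and 1337 at 0.1, in place of 857. For BRM-depleted against control cells DESeq2 called 19, no filter 66 and the 4-library fit 44, in place of 0. For recBRM-V5 against BRM-depleted cells 588 passed at 0.01 and 1033 in the 4-library fit, in place of 1595. For recBRM-K804R-V5 against BRM-depleted cells 313 passed at 0.01, 1558 at 0.1, 1766 with no filter and 1907 in the 4-library fit, in place of 957. Between the lines 105 passed at 0.01, 633 at 0.1, 718 with no filter and 105 in the 4-library fit, in place of 387. The BRM criterion was reached by 6 members and 4045 genes when each replicate's ratios were divided by their median, by 6 members and 5196 genes at a ratio of 1.0, by 1 member and 186 genes when both replicates had to reach it, and by 4 members and 2279 genes in place of 3 and 2117 with the replicates' signal summed, which was chosen after seeing the data.

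Leaving out 1 library at a time gave these ranges of members and of all genes called: 1 to 2 and 502 to 1762 in recBRM-V5 against control cells, 0 to 1 and 269 to 1251 in recBRM-K804R-V5 against control cells, 0 to 0 and 0 to 0 in BRM-depleted against control cells. They were 1 to 4 and 358 to 2620 in recBRM-V5 against BRM-depleted cells, 0 to 2 and 181 to 1711 in recBRM-K804R-V5 against BRM-depleted cells, and 0 to 0 and 153 to 411 between the lines. With 1 ChIP-seq replicate 3 to 4 members and 2154 to 3504 genes reached the criterion. Uncalled log2 fold changes whose direction turned in such a fit ranged, in recBRM-V5 against control cells, from −0.15 to 0.78 for vkg, −0.52 to 0.05 for LanB1 and −0.91 to 0.07 for SPARC. In recBRM-K804R-V5 against control cells they ranged from −0.12 to 0.74 for Col4a1, −0.03 to 0.49 for Tig and −0.46 to 0.23 for Ppn. In BRM-depleted against control cells they ranged from −0.25 to 0.52 for Col4a1, −0.37 to 0.47 for vkg and −0.28 to 0.31 for Ndg. In recBRM-V5 against BRM-depleted cells they ranged from −0.07 to 0.65 for Col4a1, −0.14 to 0.70 for vkg and −0.23 to 0.02 for Ppn. In recBRM-K804R-V5 against BRM-depleted cells they ranged from −0.21 to 0.59 for Col4a1, −0.53 to 0.46 for SPARC and −0.32 to 0.37 for Ppn. Between the lines they ranged from −0.32 to 0.54 for Col4a1, −0.67 to 0.24 for vkg, −0.02 to 0.50 for LanA, −0.21 to 0.36 for LanB1, −0.03 to 1.09 for SPARC and −0.47 to 0.22 for Ppn.

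Replicate numbers did not pair the RNA-seq samples: deviations of same-numbered libraries correlated at −0.320 to 0.626 over the 6 pairs of groups. With the replicate number as a block 1283, 729, 0, 1385, 774 and 279 genes were called in the 6 comparisons, in the order above, and apart from the call of Tig no member's call changed. Among list and marker genes the block ended the calls of Mp (adjusted p = 0.0549), Mlc2 (0.0506) and elav (0.0778) in the first comparison, Pxn (0.0663) and Mmp1 (0.0784) in the second, loh (0.0771) in the fourth and Sr-CI (0.0797) and brp (0.0706) in the last. In ChIP-seq the deviations of same-numbered IP and Input correlated at 0.690, and limma called 0 genes with the block as without it. With 2 replicates a group 36 of the 48 differences of the members were smaller than 2 SE. Ndg rests on 14 to 209 counts per library, and the ChIP-seq signal carries no read depth.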
